A study of Mus musculus with 2 samples.

Results

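The genes described here build or serve the connecting cilium of the photoreceptor, and 10 were listed by name: Rpgr, Rpgrip1, Cep290, Cetn2, Tulp1, Unc119, Pde6d, Arl3, Rp2 and Mlf1. All 10 were present among the 31053 genes of the expression matrix. They were chosen by name and function, with earlier results of these data known.

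The connecting cilium is the thin bridge between the inner segment of a rod, where proteins are made, and the outer segment, where light is detected. Cep290, Rpgr and Rpgrip1 lie at this bridge, and defects in many of its genes cause inherited retinal degeneration. Lipid-modified phototransduction proteins reach the outer segment on soluble carriers: Unc119 binds the acyl tail of transducin alpha, Pde6d binds prenyl tails, and the GTPase Arl3 releases the cargo of both before Rp2 switches it off.

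The data came from adult mouse retinas electroporated at birth with a control, a lamin A or an Lbr construct in the pCIG2 vector, all of which also encode EGFP. Lamin A and the lamin B receptor (Lbr) both attach heterochromatin to the nuclear envelope, and the comparison was made to ask how this attachment affects gene expression in rods. Cells that excluded Dapi and carried EGFP were sorted, marked with 1 of 3 lipid-anchored barcode oligonucleotides (tags 1, 2 and 3), pooled and run together on the 10x Genomics platform, so that the series holds 1 expression library and 1 tag library. The labels do not give the strain, the number of mice behind each tag or the construct that each tag marks. The tag calls named 264 barcodes for tag 1, 316 for tag 2 and 41 for tag 3. The methods state, for each construct, a number of rods that passed quality filters, and it equals the total of a tag. The tag totals count every barcode called, before any filter, so the measures differ in kind. No source names the tag of a construct, and the tags are named here by number only. Electroporation reaches a mosaic of cells, so that the sorted cells came from retinas that also held untransfected ones.

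The matrix held 834 barcodes and 2487110 UMIs (unique molecular identifiers, each standing for 1 captured transcript). Of these barcodes, 409 had 200 to 2500 genes and at most 18% mitochondrial UMIs, and 380 remained after doublet removal. Rods numbered 191 in tag 1, 130 in tag 2 and 21 in tag 3, with 564951, 332629 and 59821 UMIs in all and medians of 2825, 2602.5 and 2579 UMIs per rod. With 1 pool of cells per tag there was no replicate, and no test between tags was possible. Every interval below is an exact 95% interval that covers counting error only. Because UMIs of scarce genes were grouped in cells (58.9% of the values above 0 were 2 or more among 3033 genes seen in 2 to 5 rods), these intervals are too narrow, most of all for low counts.

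Sag, the rod arrestin, was found in 97.9%, 98.5% and 100% of the rods of tags 1, 2 and 3. It is among the markers that gave the clusters their rod name, so its presence does not test that name. Several scarcer rod markers were seen in a smaller share of the 21 rods of tag 3. Cngb1 was in 52.9%, 59.2% and 23.8% of rods, and Reep6 in 51.8%, 61.5% and 28.6%. Nr2e3 was in 67.0%, 66.2% and 47.6%, and Nrl in 78.5%, 80% and 61.9%. Esrrb, the scarcest, was in 9.42%, 3.85% and 4.76%, with tag 3 above tag 2. Markers of other cells were also present in them and differed between tags. The 11 cone markers summed to 2214, 132 and 6503 CPM (UMIs of a gene per 1000000 UMIs) in tags 1, 2 and 3, with 11, 4 and 10 of them detected. Most of these cone UMIs (930 of 1251 in tag 1 and 304 of 389 in tag 3) lay in 5 barcodes, 4 of tag 1 and 1 of tag 3, that a clustering of all barcodes placed with cones. The 12 Mueller glia markers summed to 1697, 1365 and 1856 CPM (10, 8 and 3 detected), and the 5 erythrocyte markers to 1579, 147 and 33.4 CPM (2, 2 and 1 detected). Called results between tags are therefore also given without the rods that the clustering of all barcodes put in another class. In the rods, Lmna was seen only in tag 2 (8 UMIs in 2 rods), and Lbr had 8, 11 and 20 UMIs in tags 1, 2 and 3, at 14.2, 33.1 and 334 CPM and in 1.57%, 3.08% and 23.8% of rods. Lbr thus stood highest in tag 3, with a log2 ratio over tag 1 of 4.51 (3.32 to 5.95) on counts under the minimum for a call. No tag was assigned to a construct from these counts.

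The 10 genes lie on 8 chromosomes of the mm10 build, with Rpgr, Cetn2 and Rp2 on X. The chemistry counts transcript 3′ ends, so that levels were not divided by length, but a gene is seen only where its 3′ end is annotated and unique. Rpgr (X:10073621-10216920, minus strand) has 9 annotated transcripts with 4 coding 3′ ends spread over 86987 bases, and it overlaps Srpx on the same strand. Rp2 (X:20364481-20405653, plus strand) overlaps the processed pseudogene Gm14537 on its own strand. Counts of both are therefore uncertain. The coding 3′ ends of Cep290 and Rpgrip1 are also spread, over 26602 and 12033 bases. By contrast, the coding 3′ ends of Arl3 (19:46531096-46573198, minus strand) lie within 11 bases, and those of Mlf1 (3:67374097-67400003, plus strand) within 5 bases.

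To show the regulatory sequence of the members, RefSeq promoter windows (GRCm38.p6, 13 windows for the 10 genes) were read over the 250 bases before the start, on both strands, for the CRX site TAATCC of the photoreceptor homeobox factor, the NRL half-site TGCTGA and the RFX half-site GTTGCC of ciliary genes. None of the motifs contains another. The CRX letters were in 3 of 13 windows (Mlf1, Rpgrip1 and Unc119) against 6.25% of all 32851 windows. The NRL letters were in 3 windows (Cetn2, Rpgrip1 and Unc119) against 16.1%, and the RFX letters in 2 windows (Cetn2 and Mlf1) against 10.4%. A match describes letters and does not show binding. The 2 stretches shown belong to Unc119, the most abundant member in rods, and to Mlf1, which was called lower in tag 2 and had no UMI in bipolar-like barcodes, with the motif in capitals. The Unc119 stretch (chr11:78345429-78345508, plus strand) precedes a RefSeq start inside the gene and holds the CRX letters in reverse complement, 118 bases before that start. The Mlf1 stretch (chr3:67373955-67374034, plus strand) lies before the annotated gene and holds the RFX letters 105 bases before its RefSeq start.
Unc119 CRX: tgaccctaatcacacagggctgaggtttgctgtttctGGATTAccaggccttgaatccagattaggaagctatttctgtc
Mlf1 RFX: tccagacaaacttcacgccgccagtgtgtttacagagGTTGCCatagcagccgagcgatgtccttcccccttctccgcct

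In rods of all tags together the members covered a wide range. The carrier Unc119 stood first at 4781 CPM (interval 4643 to 4921), and Tulp1, a tubby-like protein needed for protein transport in photoreceptors, was second at 1996 CPM (1908 to 2088). The GTPase Arl3 followed at 1036 CPM (973 to 1103). Behind these came Cep290 at 322 CPM (287 to 360) and Rpgrip1, the anchor of Rpgr, at 288 CPM (255 to 324). Pde6d stood at 229.8 CPM (200.4 to 262), Mlf1 at 216 CPM (188 to 248) and Cetn2, the calcium-binding centrin 2, at 173 CPM (148 to 202). From Cep290 down to Cetn2 the intervals of neighbours in this order overlapped. Rp2, the protein that switches off Arl3, had 14 UMIs in 7 of 342 rods. Rpgr had 0 UMIs in 342 rods, which at 3 counts allows a level of up to 3.13 CPM and up to 0.877% of rods with a UMI. This limits UMIs counted at this depth and the annotated 3′ ends, and not the share of rods that express the gene. The carrier pathway was thus counted mainly through Unc119 and Arl3, while Cep290, Rpgrip1 and Rpgr of the bridge each stood below Arl3.

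**Figure D1:**
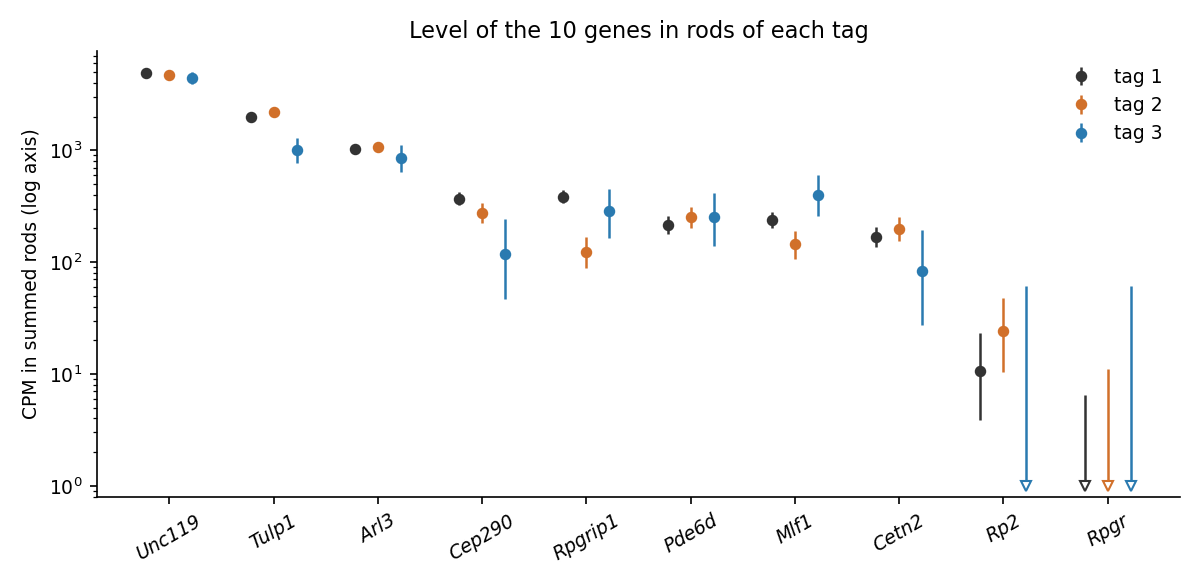
Level of each gene in CPM (log axis) in the summed rods of tags 1, 2 and 3, with exact 95% counting intervals. Open triangles mark 0 UMIs with the upper bound as a line. Unc119, Arl3 and Pde6d lie close together across tags, while Rpgrip1 is lowest in tag 2 and Tulp1 lowest in tag 3.

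By cells, Unc119 was found in 322 of 342 rods (94.2%), Tulp1 in 263 (76.9%) and Arl3 in 199 (58.2%). The other 5 genes above the lowest 2 were found in 52 to 82 rods each. Unc119 and Arl3 were seen together in 194 rods, Unc119 and Pde6d in 82, and Pde6d and Arl3 in 50. A rod held a UMI of 3 of the 10 genes at the median in every tag, with a highest value of 7, and 3 rods of tag 1 held none. The members together made up 0.929%, 0.896% and 0.741% of rod UMIs in tags 1, 2 and 3. Averaged over the 10 genes, 34.0% of tag 1 rods, 32.8% of tag 2 rods and 31.0% of tag 3 rods had a UMI of a gene. With each rod thinned to 1200 UMIs, which left out 20, 11 and 1 rods, these means were 29.1%, 27.8% and 26.5%.

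**Figure D2:**
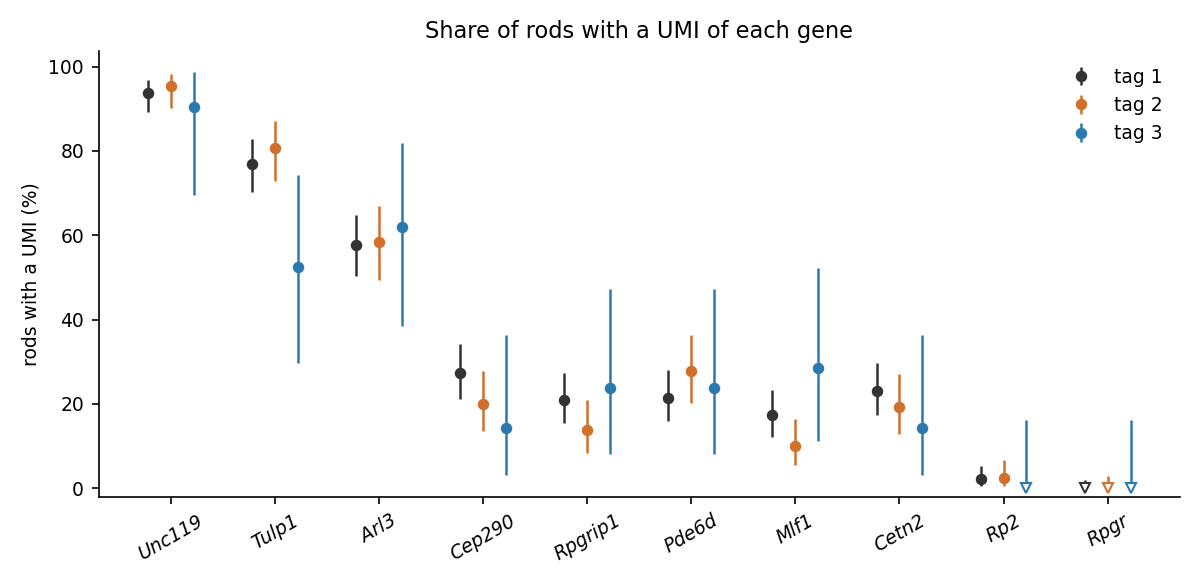
Percentage of rods with at least 1 UMI of each gene in tags 1, 2 and 3, with exact Clopper-Pearson 95% intervals and open triangles for 0. The shares of tags 1 and 2 overlap in their intervals for all 10 genes.

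To ask whether the members differed between the pools, the UMIs of all rods of a tag were summed and the tags compared by a log2 ratio with 0.5 added to both sums. A gene was called where the fold was at least 1.5 and the interval excluded 0. Only genes with a minimum of 20 expected UMIs on each side were tested. A call compares these pools of cells and not the constructs.

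Between tags 2 and 1, Rpgrip1 and Mlf1 were called lower in tag 2 and the other 6 members tested were not called. Of all 2207 genes tested, 28.5% were called, so that 2 of 8 members lay near the share among all genes. The median log2 ratio of the 8 members was −0.01, beside −0.06 for all genes tested.

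Rpgrip1 had 218 UMIs in 40 of 191 rods of tag 1, 41 UMIs in 18 of 130 rods of tag 2 and 17 UMIs in 5 of 21 rods of tag 3. Its levels were 386 CPM (336 to 441), 123 CPM (88.5 to 167) and 284 CPM (166 to 455), with tag 2 the lowest and its interval apart from that of tag 1. Tag 2 over tag 1 gave a log2 ratio of −1.63 (−2.16 to −1.16), a level 3.1-fold lower. The share of rods with a UMI was 20.9% (15.4 to 27.4) in tag 1 and 13.8% (8.42 to 21) in tag 2, with overlapping intervals, and the mean number of UMIs in a positive rod was 5.45 and 2.28.

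Rpgrip1 UMIs lay mostly in rods rich in Malat1, an RNA that stays in the nucleus. Malat1 stood at 5857 CPM in tag 1 rods, 544 CPM in tag 2 rods and 5583 CPM in tag 3 rods. The 18 rods of tag 1 with at least 10 Malat1 UMIs held 13.0% of all UMIs of that tag's rods but 142 of its 218 Rpgrip1 UMIs (65.1%). The 2 such rods of tag 3 held 12 of 17 Rpgrip1 UMIs, and the 5 of tag 2 held 3 of 41. Without these rods the log2 ratio of Rpgrip1 was −0.38 and no longer called. Counting each gene once per cell gave −0.36, also not called. Without the rods put in another class the ratio was −1.53 and called. Cep290, a long gene of the bridge, had 25.4% of its tag 1 UMIs in the same 18 rods, and Mlf1 had 9.63%.

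Mlf1, an adaptor protein first known from a leukaemia fusion, had 135 UMIs in 33 rods of tag 1, 48 UMIs in 13 rods of tag 2 and 24 UMIs in 6 rods of tag 3. The levels were 239 CPM (200.4 to 283), 144 CPM (106 to 191) and 401 CPM (257 to 597), so that tag 2 was lowest and tag 3 highest. Tag 2 over tag 1 gave a log2 ratio of −0.72 (−1.23 to −0.24), a level 1.64-fold lower. This ratio was −0.73 without the Malat1-rich rods and −0.77 without the rods put in another class, both still called. With 1 count per gene and cell it was −0.54, but with 13 and 33 positive rods Mlf1 fell under the minimum and could not be called. The shares of rods with a UMI were 17.3% (12.2 to 23.4) and 10.0% (5.43 to 16.5), with overlapping intervals.

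The carriers and their release factor differed little between tags 1 and 2. Unc119 UMIs numbered 2759, 1554 and 264 in the order of the tags, at levels of 4884, 4672 and 4413 CPM. Its level in tag 2 over tag 1 gave a log2 ratio of −0.06 (−0.15 to 0.03). Arl3 stood at 1035 CPM, 1070.3 CPM and 853 CPM in the same order, with a log2 ratio of 0.05 (−0.15 to 0.24). These intervals exclude a 1.5-fold difference in either direction as far as counting error goes. Pde6d stood at 214, 253 and 251 CPM from 121, 84 and 15 UMIs, and its log2 ratio of 0.24 (−0.18 to 0.65) leaves a 1.5-fold higher level in tag 2 inside the interval.

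Tulp1 had 1121 UMIs in 147 rods of tag 1, 730 UMIs in 105 rods of tag 2 and 60 UMIs in 11 rods of tag 3. The levels of tags 1 and 2 were 1984 CPM (1870 to 2104) and 2195 CPM (2038 to 2360), with a log2 ratio of 0.15 (0.01 to 0.28) that falls short of the fold used for a call. Cep290 had 209, 92 and 7 UMIs at levels of 369.9, 277 and 117 CPM, and its log2 ratio between tags 2 and 1 was −0.42 (−0.79 to −0.06). It was called at −0.74 without the cell that holds most of its UMIs in each tag, and at −0.74 without the filter on cells. Cetn2 had 95, 66 and 5 UMIs, or 168, 198 and 83.6 CPM, with a log2 ratio of 0.24 (−0.24 to 0.71). Rp2 had 6, 8 and 0 UMIs, and both Rp2 and Rpgr were too scarce to compare.

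**Figure D3:**
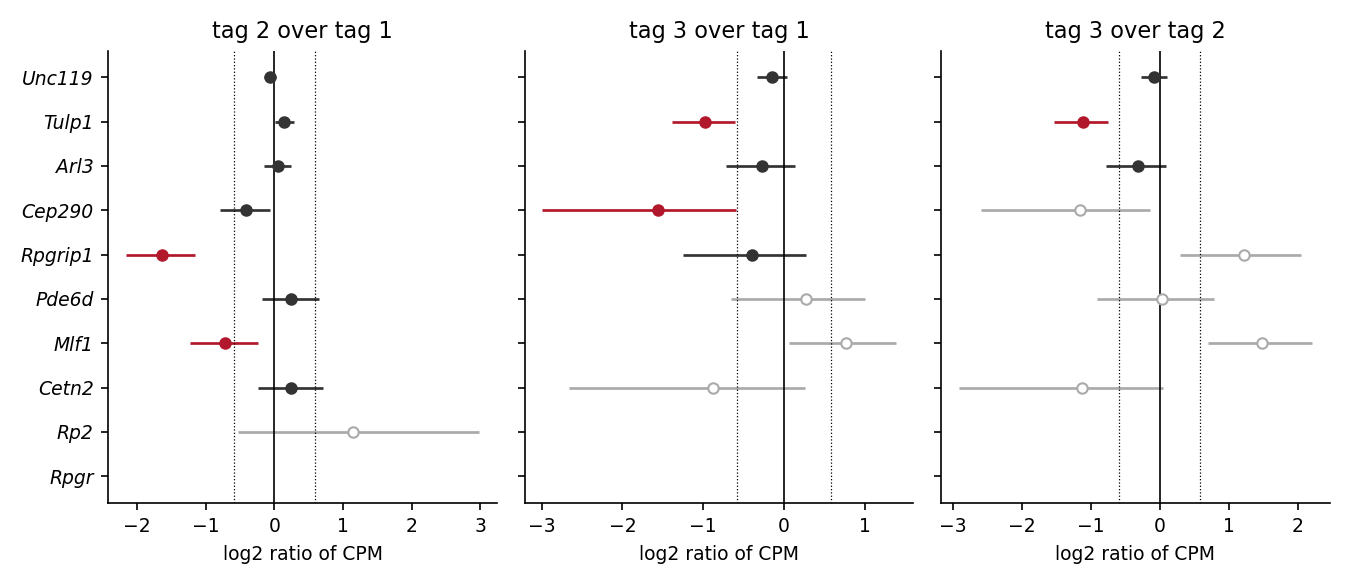
Log2 ratio of CPM for each gene and pair of tags, with exact 95% counting intervals; dotted lines mark 1.5-fold. Red points were called, black points were tested and not called, and open grey points had fewer than 20 expected UMIs in a tag. Ratios with 0 UMIs in a tag are not drawn.

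Tag 3 held 21 rods, and 5 members reached the minimum against tag 1. Tulp1 and Cep290 were called lower in tag 3, while 29.7% of all 427 genes tested were called. The median of the 5 was −0.40 and that of all genes 0.02. Tulp1 stood at 1003 CPM (765 to 1291) in tag 3 and the log2 ratio over tag 1 was −0.97 (−1.38 to −0.61). Its share of rods was 52.4% (29.8 to 74.3) in tag 3 against 77.0% (70.3 to 82.7) in tag 1, with overlapping intervals. The rod markers Nrl, Nr2e3, Cngb1 and Reep6 were also seen in a smaller share of tag 3 rods, and their part in the lower Tulp1 was not tested. With doublet calls kept, which changed 21 rods of tag 3 to 24, the ratio was −0.48 and not called, and without the filter on cells it was −0.43 and not called. Cep290 rested on 7 UMIs in 3 rods of tag 3, with a log2 ratio over tag 1 of −1.56 (−2.99 to −0.59), and on 35 rods without the filter on cells the ratio was −0.27 and not called. Unc119 and Arl3 gave −0.14 (−0.33 to 0.04) and −0.27 (−0.72 to 0.13).

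Against tag 2, 3 members were tested in tag 3 and Tulp1 was called lower, at −1.12 (−1.53 to −0.75), while 37.3% of the 402 genes tested were called. The comparisons of tag 3 share its 21 rods. Without the filter on cells Tulp1 was not called, at −0.36. Unc119 was at −0.08 (−0.28 to 0.11) and Arl3 at −0.32 (−0.78 to 0.10) between tags 3 and 2. Without the 1 tag 3 rod that the clustering of all barcodes put with cones, and without the 10 rods of the other tags put with cones or Mueller glia, Tulp1 was still called at −0.88 against tag 1 and −1.0 against tag 2, and Cep290 was not called at −1.45 against tag 1.

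The cargo of the carriers was read beside them. The 6 genes were Gnat1 (transducin alpha), Gnb1 and Gngt1 (its beta and gamma partners), Pde6b and Pde6g (subunits of the phosphodiesterase) and the kinase Grk1. Between tags 2 and 1, 0 of the 6 were called, against 28.5% of all genes, and all 6 log2 ratios were above 0, with a median of 0.25. Among them, Pde6g at 0.0006 (−0.05 to 0.05) and Grk1 at 0.02 (−0.36 to 0.40) had intervals that include 0. Of all 2207 genes tested, 995 were above 0. Gnat1 stood at 4873, 6223 and 4079 CPM in tags 1, 2 and 3, and for tag 2 against tag 1 its log2 ratio was 0.35 (0.27 to 0.44). Against tag 1, tag 3 had 5 of 5 tested cargo genes below 0, with Gngt1 at −0.02 (−0.12 to 0.07). Of all 427 genes tested, 205 were below 0. Pde6b was called at −1.37 (−1.99 to −0.85) from 28 UMIs in tag 3, while 29.7% of all genes were called, 65 of them lower. Against tag 2, the same 5 were below 0 and 3 were called lower in tag 3 (Gnat1, Gnb1 and Pde6b). Of all 402 genes tested, 193 were below 0 and 37.3% were called, 70 of them lower. Unc119, the carrier of transducin alpha, was thus within a narrow interval of equal levels in tags 1 and 2 while its cargo gene Gnat1 stood higher in tag 2 by less than the fold used for a call.

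A wider list of 85 ciliary genes (the IFT particle, its motors, the BBSome, the transition zone, the axoneme and relatives of the members) was scarcer. Between tags 2 and 1, 32 of the 85 were tested, 4 were called higher in tag 2 and 5 lower, with a median log2 ratio of −0.20. These 9 of 32 lay near the 28.5% of all genes called. The lowest were the axonemal tubulin Tubb4b at −2.91 (−4.24 to −1.96), with 8 UMIs in 4 rods of tag 2 against 108 in 22 rods of tag 1, and the IFT particle gene Ift20 at −1.35 (−2.06 to −0.74). The highest were the BBSome subunit Bbs7 at 0.84 (0.16 to 1.52) and Arl2bp, a binding partner of Arl2 and Arl3, at 0.90 (0.25 to 1.56). By group, 2 of 7 IFT genes, 0 of 1 motor, 2 of 7 BBSome genes, 1 of 5 transition zone genes, 1 of 6 axonemal genes and 3 of 6 relatives of the members were called.

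The members were next read in all 834 barcodes without the filter on cells, in 652 rod-like, 90 Mueller glia-like, 39 bipolar-like, 36 cone-like and 17 microglia-like barcodes. The genes of these lists took no part in the clustering. Depth and quality differed between classes. Median UMIs were 2491.5 in rod-like, 1167 in Mueller glia-like, 8938 in bipolar-like, 1510.5 in cone-like and 3372 in microglia-like barcodes. Median mitochondrial shares were 15.8%, 49.7%, 20.5%, 40.7% and 6.14% in the same order. Of the Mueller glia-like barcodes 81 of 90 carried no tag, as did 26 of 36 cone-like barcodes, and 29 of 39 bipolar-like barcodes were of tag 2.

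In every comparison of classes, expected UMIs were taken from the rate of both classes together. Rods held 1880408 UMIs against 67610 in microglia-like barcodes, so that a gene reached the minimum mainly through its level in rods. The minimum thus favoured genes high in rods, among the members as among all genes tested. Against microglia-like barcodes, which lack a photoreceptor cilium, 8 of 8 tested members were called higher in rods, while 40.7% of all genes tested were called higher and 13.6% lower. Unc119 was found in 1 of 17 microglia-like barcodes with 1 UMI and in 598 of 652 rod-like barcodes (91.7%). Tulp1 was found in 2 of 17 with 2 UMIs and in 462 rod-like barcodes (70.9%). Arl3, Pde6d and Mlf1 had 0 UMIs in microglia-like barcodes, and with 3 UMIs as the limit of a count of 0 over the class they were at least 21.8-fold, 4.72-fold and 3.72-fold higher in rods. Rp2 was found in 2.15% of rod-like and 1 of 17 microglia-like barcodes, so that its share of rods could not be told from background at this depth.

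Against bipolar-like barcodes, 9 of 10 members were called higher in rods and Rpgr was called lower, while 27.5% of all genes tested were called higher and 24.6% lower. The median log2 ratio was 3.13 for the members and 0.06 for all 6846 genes tested. Rp2 counts among these 9 on 27 against 0 UMIs, and it reached the minimum through its rod UMIs alone. Tulp1 had 1 UMI in 39 bipolar-like barcodes, at 3.1 CPM against 1851 CPM in rods, and Mlf1 had 0, which makes it at least 17.7-fold higher in rods. Unc119 was at 533 CPM in bipolar-like barcodes and in 26 of 39 of them, and Arl3 at 189 CPM in 19 of 39. Their log2 ratios of rods over bipolar-like barcodes were 3.02 (2.81 to 3.25) and 2.35 (1.99 to 2.75). Cep290 was closest among the genes higher in rods, at 332 CPM against 146 CPM and a log2 ratio of 1.18 (0.76 to 1.65). Among barcodes that pass the filter this ratio was 0.45 and not called.

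Rpgr was counted in few barcodes. Its 47 UMIs were split into 28 in 8 of 39 bipolar-like barcodes, all of tag 2, and 19 in 6 of 652 rod-like barcodes. The levels were 86.8 CPM (57.6 to 125) and 10.1 CPM (6.08 to 15.8), with a log2 ratio of −3.09 (−4.02 to −2.21). All 19 rod-like UMIs came from the 7 rod-like barcodes with more than 2500 genes, and the 645 others had 0. In those 7 deep barcodes Rpgr stood at 80.2 CPM, near the level of the bipolar-like class. Among the barcodes that pass the filter on cells it had too few UMIs to be tested. Bipolar-like barcodes were also the deepest class.

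Against Mueller glia-like barcodes, 8 of 8 tested members were called higher in rods, while 53.8% of all genes tested were called higher and 5.78% lower. The median was 2.93 for the members and 1.74 for all genes tested, so that most genes stood higher in rods here. Tulp1 was at 142 CPM and Unc119 at 586 CPM in Mueller glia-like barcodes, and Gnat1, a rod gene that glia lack, was at 452 CPM there, against 5776 CPM in rods. The fold of rods over Mueller glia-like barcodes was 7.37 for Unc119, 12.8 for Tulp1 and 12.7 for Gnat1. Without mitochondrial UMIs in the denominator 6 of 8 were called, and the log2 ratio of Pde6d moved from 1.21 to 0.29. Among barcodes that pass the filter, 7 Mueller glia-like barcodes remained and 2 of 3 tested members were called. Shares of all genes called under these settings are not given here.

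In cone-like barcodes the bridge genes stood near their rod levels. Rpgrip1 was at 397 CPM in cone-like and 598 CPM in rod-like barcodes, Cep290 at 265 and 332 CPM, and Cetn2 at 103 and 132 CPM, with log2 ratios of 0.56 (0.04 to 1.2), 0.29 (−0.34 to 1.09) and 0.27 (−0.70 to 1.69). The direction of Rpgrip1 turned without the 7 rod-like barcodes above 2500 genes, since the other 645 stood at 208 CPM, and 17 of its 27 cone-like UMIs came from 1 barcode. Unc119, Tulp1 and Arl3 were 2.47-fold, 3.03-fold and 2.39-fold higher in rods. The rod gene Gnat1 was at 1795 CPM in cone-like barcodes, 3.2-fold lower than in rods, so that rod RNA was present there, and its part in the levels of the members was not tested. Pde6d went the other way, at 353 CPM in cone-like and 209.5 CPM in rod-like barcodes, with a log2 ratio of −0.78 (−1.35 to −0.09), but 11 of its 24 cone-like UMIs came from 1 barcode. Mlf1 had 0 UMIs in cone-like barcodes and was at least 3.73-fold higher in rods.

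**Figure D4:**
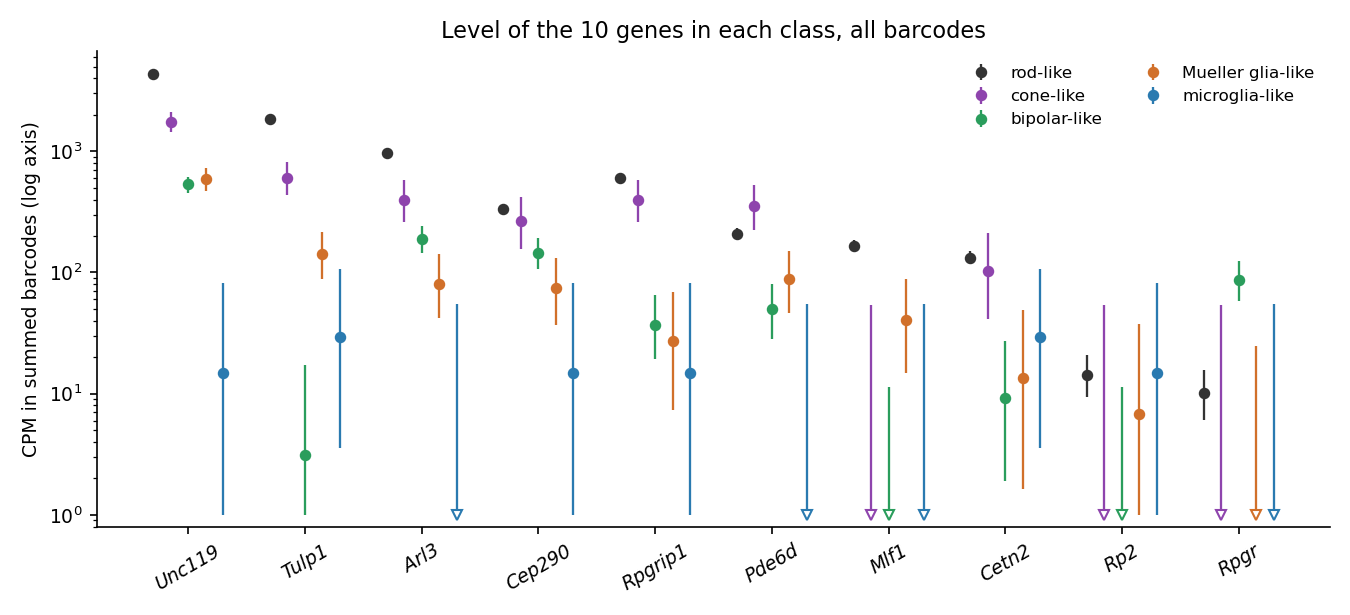
Level of each gene in CPM (log axis) in the summed barcodes of each class, without the filter on cells, with exact 95% counting intervals cut at 1 CPM. Open triangles mark 0 UMIs with the upper bound as a line. Rod-like barcodes stand highest for 7 of the 10 genes, and the exceptions are Pde6d (cone-like highest), Rpgr (bipolar-like highest) and Rp2 (microglia-like highest, on 1 UMI). Rpgrip1 is among the 7 only with the barcodes above 2500 genes, without which rod-like is at 208 CPM and cone-like at 397 CPM.

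The 7 rod-like barcodes with more than 2500 genes, all of tag 1, held 12.6% of rod-like UMIs and 73.6% of rod-like Malat1 UMIs. They held 783 of 1125 Rpgrip1 UMIs (69.6%), of which 365 lay in 1 barcode, and 29.1% of Cep290 UMIs. Their Rpgrip1 level was 3305 CPM against 208 CPM in the other 645 rod-like barcodes. With the filter on cells removed, the log2 ratio of Rpgrip1 for tag 2 against tag 1 was −3.27. Unc119 and Arl3 went the other way, at 2072 against 4671 CPM and 595 against 1022 CPM. In these 7 barcodes Rpgrip1, Cep290 and Rpgr thus took more than their share of UMIs. Tulp1 (13.7%) and Rp2 (18.5%, on 5 UMIs) also stood above the 12.6% share. Unc119, Arl3, Pde6d (10.4%), Cetn2 (5.62%) and Mlf1 (5.16%) took less. Pde6d differed among the filtered rods, where 18.2% of its tag 1 UMIs lay in the Malat1-rich rods that hold 13.0% of UMIs. Whether these barcodes hold 1 cell each was not tested.

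**Figure D5:**
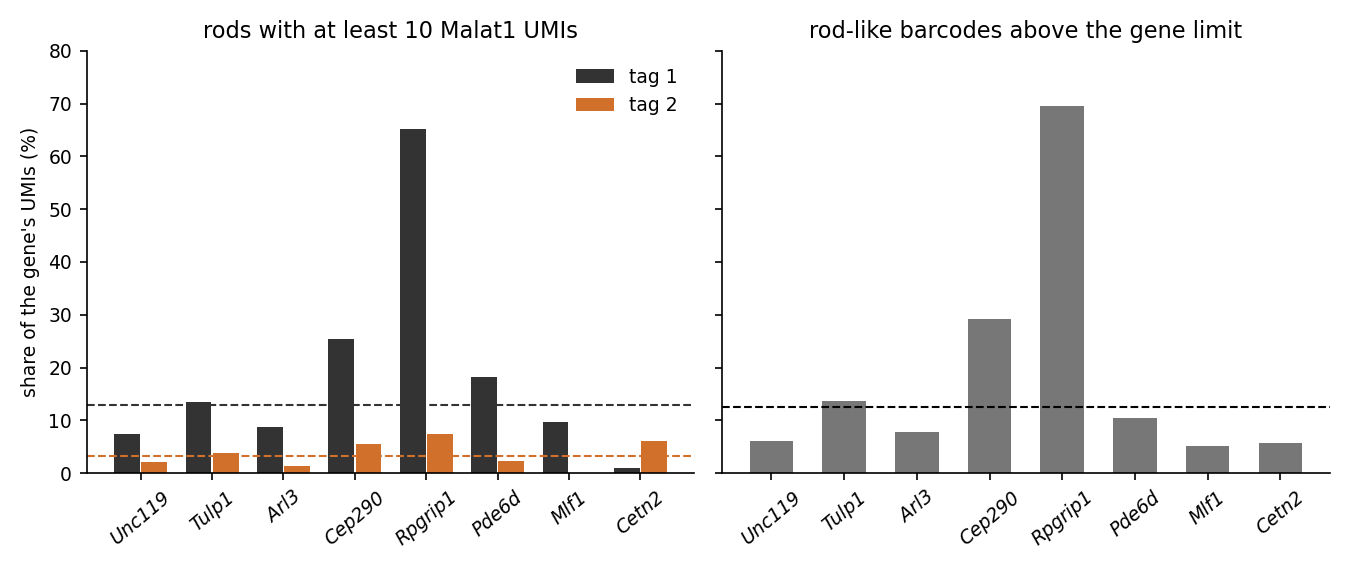
Share of each gene's UMIs (%) held by rods with at least 10 Malat1 UMIs in tags 1 and 2 (left) and by the 7 rod-like barcodes with more than 2500 genes (right). Dashed lines mark the share of all UMIs those barcodes hold, 13.0% and 3.25% on the left and 12.6% on the right, and Rpgrip1 stands far above its line in tag 1 (65.1%) and on the right (69.6%).

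Members also differed with the share of mitochondrial UMIs. In the 255 rod-like barcodes above 18% mitochondrial UMIs, Rpgrip1 had 59 UMIs against 1066 in the 397 within the limit, a log2 ratio of −2.99 (−3.40 to −2.62). Without the 7 barcodes above 2500 genes it had 59 against 283 UMIs, 102 against 265 CPM, and a ratio of −1.37 (−1.81 to −0.97). Over all rod-like barcodes Mlf1 and Cep290 were at −0.97 (−1.42 to −0.56) and −0.81 (−1.10 to −0.53). Without those 7 barcodes Mlf1 was at −1.16 and Cep290 at −0.44. Cetn2 was at −0.47 (−0.92 to −0.05), and at −0.65 without the 7. Over all rod-like barcodes Tulp1 was at −0.44 (−0.55 to −0.33), Pde6d at 0.22 (−0.09 to 0.52) and Rp2 at −0.02 (−1.47 to 1.19). Unc119 and Arl3 were at −0.07 (−0.14 to −0.0002) and 0.05 (−0.09 to 0.20). Unc119 was at −0.23 (−0.30 to −0.16) without the 7 barcodes. Over all rod-like barcodes, with mitochondrial UMIs left out of the denominator, Rpgrip1 was at −2.77 and Mlf1 at −0.74. Cep290 and Tulp1 were then at −0.58 and −0.21, Unc119 at 0.15, Arl3 at 0.27 and Pde6d at 0.44. The shift of all genes in this split is not given here. Tag 2 rods had the higher median mitochondrial share (14.3%, against 10.7% in tag 1 and 11.1% in tag 3), and the part of this difference in the lower Rpgrip1 and Mlf1 of tag 2 was not tested.

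The genes most like the 2 most abundant members were found from centred log2(CPM + 10) over the 7 groups of 1 class and 1 tag with at least 5 barcodes, among 5098 other genes with at least 50 UMIs. For Unc119 they were Tma7, Zfp385a and Stard10, at root mean square differences of 0.50, 0.90 and 0.94 log2 units. For Tulp1 they were Nrl, the rod fate factor, at 0.56, then Cplx4, a complexin of the photoreceptor synapse, and A930003A15Rik, both at 0.81.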

How the data were processed

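Expression was measured in 1 pooled library, with a tag library of the same cells. The authors deposited UMI counts per gene and barcode, not normalized, from reads aligned to mm10 with Cell Ranger, whose version is 6.1.2 in the submitters' processing notes and 3.1.0 in the matrix header. The authors also deposited tag counts and, per barcode, a tag call and a fraction, the probability of carrying a single tag. Barcodes were filtered as the study states (200 to 2500 genes, at most 18% mitochondrial UMIs), then Scrublet removed 29 of 409 with an expected rate of 6%. Cells were clustered with scanpy 1.11.5 (2000 variable genes, 30 components, 15 neighbours, Leiden resolution 1), leaving out the 10 genes, the ciliary lists, Lmna, Lbr, Malat1, haemoglobin and mitochondrial genes. Clusters were named from fixed markers, with a scoring rule set after the data were seen, and names may differ from the study's own annotation. Rods were 9 of 11 filtered clusters and 7 of 11 clusters of all barcodes.

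UMIs were summed per tag or class, and ratios with exact conditional 95% intervals (scipy 1.17.1) took 0.5 added to each sum. For classes the minimum was 20 expected UMIs in rods and 3 in the other class. Expected UMIs came from the rate of both sides together, for tags and for classes. Intervals and limits of 0 (3 counts) cover counting error only. The interval code was tested on simulated Poisson counts, which lack the grouping of UMIs in cells. Of the matrix gene IDs, 99.6% were in GENCODE M21. Genes were named by rule: all 10 members, 6 cargo genes (1 more is not reported here), and of the wider lists the 2 highest and 2 lowest ratios of tag 2 over tag 1 among tested genes seen in at least 10 rods. The members, lists and rules were chosen with earlier results of these data known. Of the wider lists, Tctn2 was not found by symbol and was not analysed here. Protein sequences were not used here.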

Additional observations from a re-analysis of the deposited data

How the results depend on the processing

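No paired analysis was possible because each library is a single pool, and for the same reason no replicate could be left out. Counts of members called between tags 2 and 1 (2 as reported, Rpgrip1 and Mlf1) were 1 without rods with at least 10 Malat1 UMIs and 0 when each gene counted once per cell, and 2 or 3 in the other 12 alternatives. Under the once-per-cell count Mlf1 fell under the minimum. Between tags 3 and 1 (2 as reported) the count was 1 without the filter on cells (Rpgrip1), with the strict tag call, without the Gnb3-led rod clusters, without rods put in another class, without Malat1-rich rods, without the cell holding most UMIs and at a minimum of 50 expected UMIs (Tulp1 in each of these 6), and 0 when each gene counted once per cell, where no gene reached the minimum. Between tags 3 and 2 (1 as reported, Tulp1) it was 0 without the filter on cells and 3 at a minimum of 10 expected UMIs. It was also 0 under the once-per-cell count, where Tulp1 fell under the minimum. In rods over Mueller glia-like barcodes (8 as reported) the number was 2 under the once-per-cell count and 2 with only barcodes that pass the filter, and over microglia-like barcodes (8 as reported) it was 4 under the once-per-cell count. Over bipolar-like barcodes it was 7 to 10. The number of members tested and the share of all genes called can change with the setting and are mostly not given here. A changed count is therefore not read as a result about the members. Among the alternatives for log2 ratios, 0 called values changed sign, but sizes moved. Of the ratios between tags, 31 lay outside the interval of the main setting and 161 inside it. Of the ratios between classes, 33 lay outside and 61 inside. For Unc119 in rods over Mueller glia-like barcodes the lowest was 0.51, beside 2.88 in the main setting. Leaving out Gnb3-led clusters, Malat1-rich rods, rods put in another class and, for the mitochondrial split, barcodes above 2500 genes was chosen after seeing the data. The mean of CPM per cell has no counting interval, so calls there used the fold alone. Low depth limits Rpgr, Rp2 and all values of tag 3.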

Other observations

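The rods of the 3 tags differed in counts of sex-linked transcripts. Any bearing on the X-linked members Rpgr, Cetn2 and Rp2 was not tested. The Y-linked gene Eif2s3y was counted 30 times in 12 tag 1 rods, 0 times in tag 2 rods and 2 times in 1 tag 3 rod, and Xist, the RNA of the inactive X chromosome, 7 times in 1 tag 1 rod, 0 times in tag 2 rods and 11 times in 2 tag 3 rods. In bipolar-like barcodes Xist reached 717 UMIs in 21 of 39 barcodes, of which 569 UMIs lay in 15 of the 29 of tag 2. The Y-linked genes Eif2s3y and Uty had 5 and 13 UMIs, each in 3 bipolar-like barcodes of tag 2. Counts of 0 in tag 2 rods therefore do not give the sex of the mice behind that tag. Labels and methods do not give the sex of the mice behind each tag.

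The wider ciliary list also differed between classes. Over bipolar-like barcodes, 38 of 70 tested genes were called higher in rods and 10 lower, with a median log2 ratio of 1.53, beside 27.5% higher, 24.6% lower and a median of 0.06 over all 6846 genes tested. Relatives of the members were split, with 2 called higher and 3 lower of 9 tested. Chosen after their values were seen, Unc119b, a paralog of Unc119, was at −3.15 (−4.41 to −1.99), with 11 UMIs in rod-like and 17 in bipolar-like barcodes, and Arl6, the GTPase that recruits the BBSome, had 867 UMIs in rod-like and 0 in bipolar-like barcodes.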
